A study of Mus musculus with 12 samples.

Results

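The genes of ribosome biogenesis and the nucleolus were followed through early inner ear development and in a cell line derived from it. Members were the genes whose symbol is Nol, Nop, Utp, Rrp or Imp with a number, together with Fbl, Dkc1, Nhp2, Gar1, Npm1 and Bop1. This gave 45 of the 18194 genes named by a probe set of 1 gene, with 94 probe sets between them, and 29 of the 45 genes had more than 1 probe set. All 45 stood above the level cutoff used for testing, in the vesicle arrays as well as in the cell line arrays. The choice rested on names. It therefore takes in Nol3, an inhibitor of apoptosis, and Nol4 and Nol4l, which are not known as ribosome assembly factors, and it leaves out assembly factors with other names, which are counted separately below.

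Ribosomes are built in the nucleolus, where RNA polymerase I makes a long precursor of the ribosomal RNAs. Small nucleolar ribonucleoproteins of the box C/D type methylate this precursor, those of the box H/ACA type convert uridines to pseudouridine, and large scaffolds named the small subunit processome and the pre-60S particle fold and cut it. Cells that divide or grow fast need many ribosomes, and Myc proteins are known activators of many of these genes through the E-box, a short promoter sequence.

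RNA of 12 samples was measured on Affymetrix mouse arrays, with 2 arrays in each of 6 groups. Otic vesicles, the epithelial sacs from which the inner ear forms, came from wild-type embryos and from embryos labelled Dlx5-null, at embryonic day 10 (E10) and at E10.5. Each vesicle sample pooled 4 to 8 vesicles, taken from embryos staged by somite number and treated with dispase against adhering mesenchyme. Dlx5 is a homeobox transcription factor gene of the otic epithelium. The other 4 arrays came from separate cultures of 2B1, an otic vesicle cell line held in division at 32 °C with gamma-interferon. These cells were transfected transiently with a GFP vector, with Dlx5 in 1 group and without it in the other, and kept for 4 days at 37 °C without gamma-interferon. All values are log2 expression per probe set, and differences are in log2 units, where -1 is a halving.

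Several facts of the whole series touch the values that follow. The Dlx5 probe set was higher in the labelled-null arrays (7.27 to 8.02) than in the wild-type arrays (6.11 to 6.30), and in 2B1 cells it read 5.14 and 4.80 with Dlx5 against 4.66 and 4.79 without. Where its probes lie against the deleted or transfected sequence is not given in the sources used here, so the groups are called by their labels. The replicate 1 arrays of both E10 groups and the replicate 2 array of the labelled-null E10.5 group had a narrower spread of values over all probe sets (SD 2.32, 2.33 and 2.38) than the other vesicle arrays (2.45 to 2.47). In 2B1 cells the replicate 1 array with the empty vector had an SD of 2.19, against 2.29 to 2.31 in the other 3. Otic epithelial markers were present in the vesicles, Oc90 at 10.8 to 13.3 and Sox10 at 11.1 to 12.3. In 2B1 cells the otic markers Pax8, Otx1 and Otx2 fell under the level cutoff, and Pax2 has no probe set of 1 gene here. Of the 12 otic epithelial markers on these arrays 9 stood above the cutoff, Oc90 at 5.67 to 6.17 and Sox10 at 6.53 to 7.17 among them.

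Promoters are shown first, since the E-box is the motif through which Myc proteins act on genes of this kind. RefSeq windows of the GRCm38.p6 assembly, from 250 bases before to 50 bases after a gene's start, were matched for 34 of the 45 members. These 34 members had 41 windows between them. The E-box letters CACGTG, the same on both strands, stood in a window of 9 of these 34 members (26.5%), against 10.2% of the 14454 array genes with a window. The 9 runs are printed 5′ to 3′ on the gene's strand, cut at the window's end where it is reached, with the E-box in capitals.
Nol11: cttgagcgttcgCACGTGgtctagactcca
Nop2: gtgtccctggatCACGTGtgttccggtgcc
Utp14b: cgcgggcgcgggCACGTGggtggggtcgtc
Utp18: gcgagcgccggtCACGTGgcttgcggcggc
Utp20: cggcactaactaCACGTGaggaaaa
Utp4: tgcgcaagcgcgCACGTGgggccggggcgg
Imp4: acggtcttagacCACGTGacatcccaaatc
Rrp7a: gtgcctgtgcacCACGTGtcctggaactgg
Utp25: agccagcgtgccCACGTGcgacagcgacaa
The Utp18 run lies at chr11:93885769-93885798 on the minus strand and its E-box begins 20 bases before the start. The Nol11 run is at chr11:107189407-107189436 on the minus strand, with the E-box 43 bases before the start. The Nop2 run is at chr6:125131811-125131840 and the Utp14b run at chr1:78658365-78658394, both on the plus strand, with the E-box 60 and 63 bases before the start. In Utp20, at chr10:88826765-88826789 on the minus strand, it begins 38 bases after the start, and in Utp4, at chr8:106893643-106893672 on the plus strand, 16 bases after it. In Imp4, at chr1:34439696-34439725 on the plus strand, it lies 121 bases before the start. In Rrp7a, at chr15:83122992-83123021 on the minus strand, it lies 208 bases before the start. Utp25 has several start sites in the table, and for the one used here its run at chr1:193130211-193130240 on the minus strand begins the E-box 24 bases after the start. A match of letters is a description of the window and not a measured site.

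The other motifs searched on both strands were CCGGAAGT of ETS factors, AAGATGGCG of YY1, TATAAA of the TATA box, the NF-Y letters CCAAT and the NRF1 motif, and none of them contains the E-box letters. Shares are of genes with the letters in any of their windows. The ETS letters stood in 7 of the 34 members (20.6%), against 6.62% of all genes with a window. The CCAAT letters stood in 14 (41.2%, against 42.0% of all), TATAAA in 4 (11.8%, against 11.5%), the YY1 letters in 1 (2.94%, against 2.53%) and the NRF1 motif in 0 (1.75% of all). Median GC content was 58.0% in the member windows and 58.3% over all windows.

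From E10 to E10.5 the levels of 9 members fell and 1 rose, in the fit over both genotypes with 4 arrays a stage. Those that fell were Dkc1, to 0.511 of the E10 level, Nol8, to 0.475 of it, and Utp20, Npm1, Nop58, Nop56, Utp14a, Utp14b and Nop14, to between 0.670 and 0.750 of it. The one that rose was Nop53. These 10 members are 22.2% of the 45, where 15.8% of the 13645 genes tested passed the same limma test with Benjamini-Hochberg adjustment at 0.05. The 9 that fell are 20.0% of the members, where 6.54% of all genes tested fell, and the 1 that rose compares with 9.28% of all genes. Of the 45 members 29 were lower at E10.5 (64.4%, against 44.7% of all genes), and the median difference was -0.13, against 0.04 over all genes. With single arrays left out this median ran from -0.16 to -0.04. Replicates of a group differed by as much. The median member gap, replicate 1 minus replicate 2, was -0.22 in wild-type and -0.15 in labelled-null vesicles at E10. At E10.5 this gap was -0.01 and 0.16 in the same order. The E10 and E10.5 arrays did not overlap for 12 members that were lower (9.97% of all genes) and 2 that were higher (15.3% of all genes). In bulk vesicles, a change in the share of cells that carry a transcript and a change in its amount per cell cannot be told apart.

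**Figure D1:**
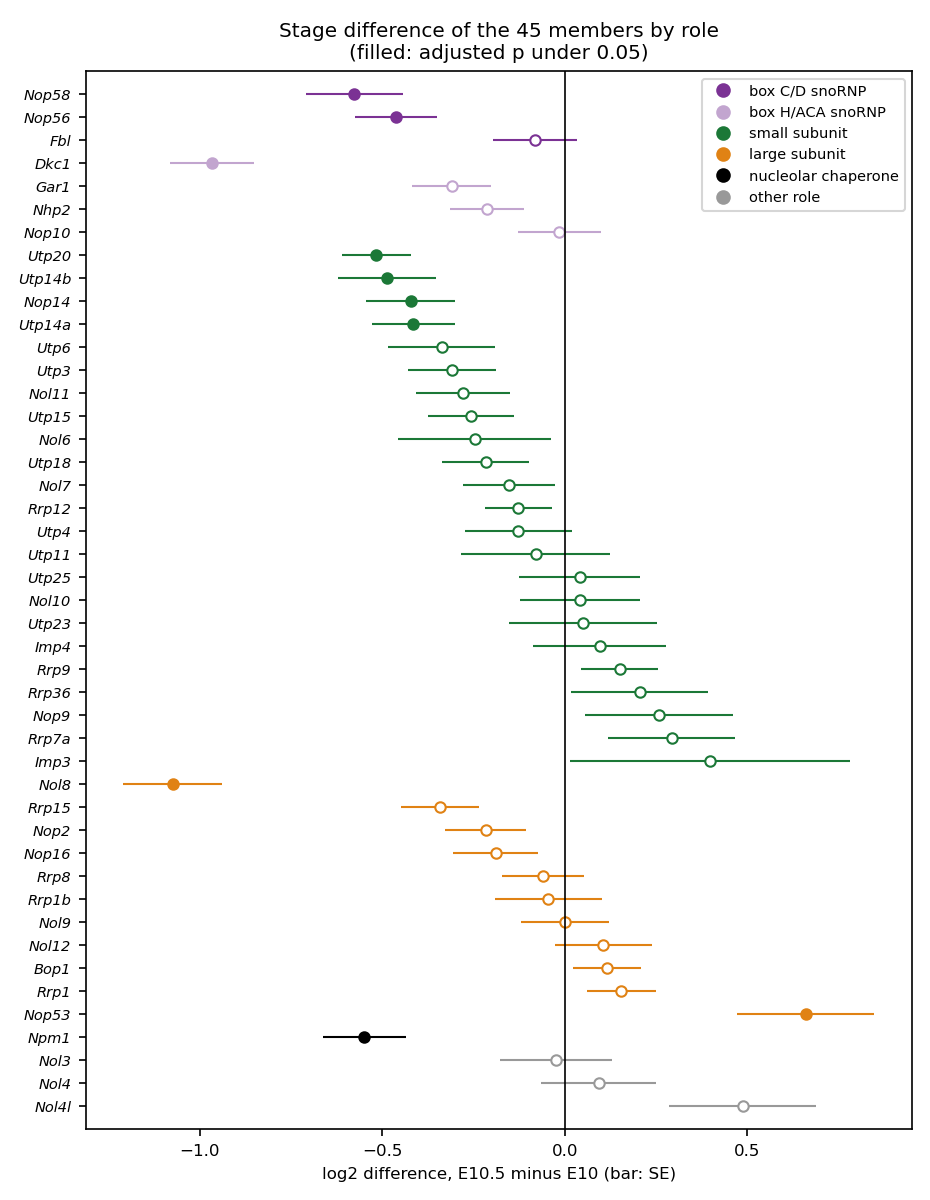
Stage difference (E10.5 minus E10, log2 units, horizontal axis) of each of the 45 members with its standard error (bar), grouped by role; filled points passed the limma test at an adjusted p under 0.05. The filled points lie between -1.07 and -0.41 for the 9 members that fell and at 0.66 for Nop53.

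Among the box C/D proteins, Nop58 and Nop56, the paired scaffold proteins that hold the guide RNA, fell, and the methyltransferase Fbl gave no call. At E10, Nop58 read 10.38 and 10.62 in wild-type vesicles and 10.08 and 10.10 in the labelled-null ones. At E10.5 it read 9.75, 9.75, 9.88 and 9.49 in the same order. Nop56 read 11.15, 10.95, 11.24 and 11.11 at E10 and 10.66, 10.80, 10.53 and 10.61 at E10.5. For both genes all 4 arrays at E10.5 lay below all 4 at E10. Nop58 differed by -0.58 (SE 0.13, limma adjusted p = 0.0254) and Nop56 by -0.46 (SE 0.11, limma adjusted p = 0.0304), and the other Nop56 probe set gave -0.57. The Nop56 set used is of a kind that can bind transcripts of several genes, and the other one is not. Fbl read 10.7 to 11.0 at E10 and 10.6 to 10.9 at E10.5, which overlap (-0.08, SE 0.12, limma adjusted p = 0.645).

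Of the box H/ACA proteins, Dkc1, the pseudouridine synthase that is also part of telomerase, fell the most. Wild-type arrays read 12.90 and 12.66 and labelled-null arrays 12.49 and 12.26 at E10, against 11.75, 11.70, 11.40 and 11.59 at E10.5. All E10 arrays lay above all E10.5 arrays, and at each stage both labelled-null arrays lay below both wild-type arrays. The stage difference was -0.97 (SE 0.12, limma adjusted p = 0.00396), a level at E10.5 of 0.511 times that at E10, and the other 2 probe sets of Dkc1 gave -1.09 and -1.09. Its partner proteins in the particle differed less. Gar1 read 12.72 to 13.02 at E10 and 12.51 to 12.60 at E10.5, which do not overlap, with a difference of -0.31 (SE 0.11) that missed the threshold (limma adjusted p = 0.0848). Nhp2, which contacts the guide RNA, gave -0.21 (SE 0.10, limma adjusted p = 0.180), also without overlap. Nop10, the smallest of the core proteins, gave -0.01 (SE 0.11, limma adjusted p = 0.941).

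**Figure D2:**
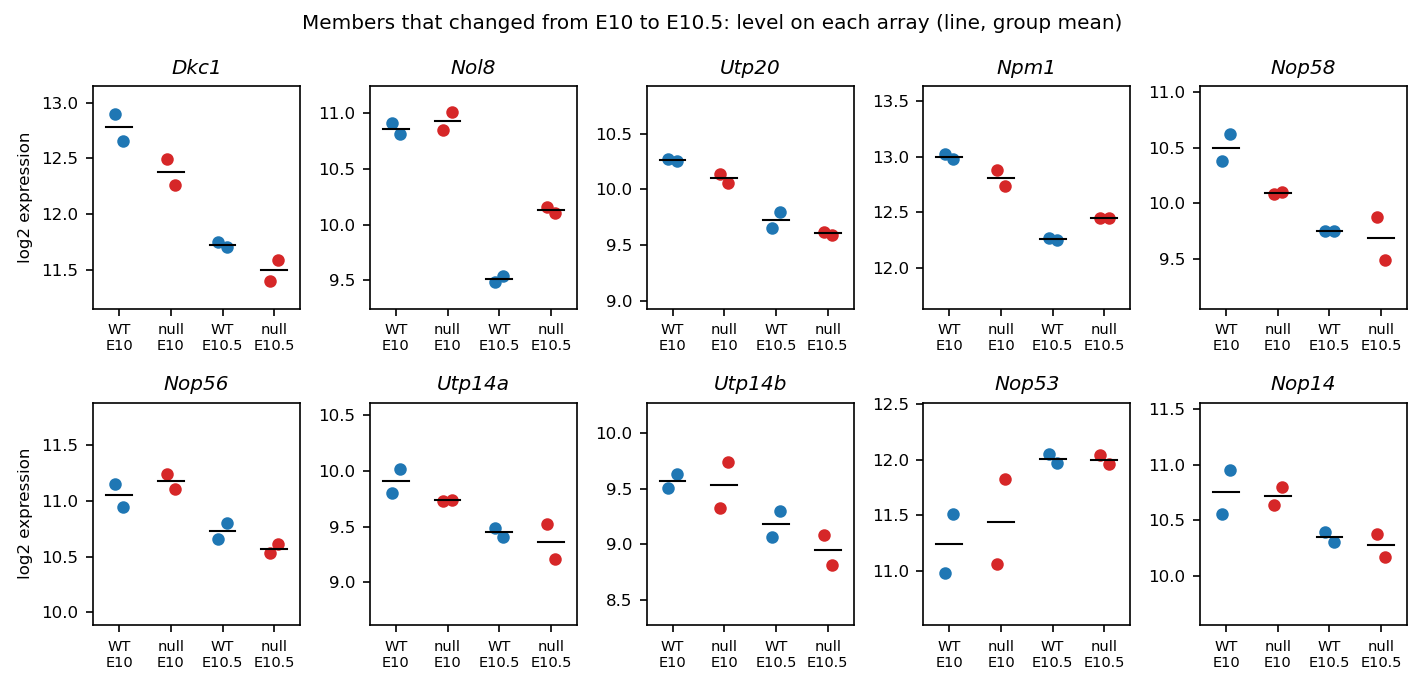
Log2 expression (vertical axis) on each vesicle array of the 10 members that passed the stage test, by group (wild-type in blue, labelled-null in red, 2 arrays each, the line being the group mean); each panel spans 2 log2 units. In all 10 panels the E10 and E10.5 arrays do not overlap, and Nol8 at E10.5 is the panel where the genotypes stand furthest apart, at 9.48 and 9.54 against 10.16 and 10.10.

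The small subunit factors, the largest role group, gave the most calls by number, 4 of 23, all lower. Over all genes tested 15.8% passed and 6.54% fell. The other role groups gave 2 of 3 box C/D proteins, 1 of 4 box H/ACA proteins and 2 of 11 large subunit factors. Utp20, a giant scaffold protein of the small subunit processome, read 10.27, 10.26, 10.14 and 10.06 at E10 and 9.65, 9.80, 9.62 and 9.59 at E10.5, in the order wild-type then labelled-null. Its stages did not overlap, and it differed by -0.52 (SE 0.09, limma adjusted p = 0.0118). Nop14, another scaffold of the same particle, read 10.56 to 10.95 at E10 and 10.17 to 10.40 at E10.5 (-0.42, SE 0.12, limma adjusted p = 0.0493). Utp14a, the partner of a processome helicase, read 9.73 to 10.02 and 9.21 to 9.52 (-0.41, SE 0.11, limma adjusted p = 0.0414). A second Utp14a set gave -0.22. Utp14b is a retroposed copy of Utp14a, and whether their probes share transcripts was not examined. It read 9.33 to 9.74 at E10 and 8.81 to 9.30 at E10.5 (-0.49, SE 0.14, limma adjusted p = 0.0441).

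The other 19 small subunit members passed in neither direction, 10 of them lower and 9 higher. Utp3 gave -0.31 (SE 0.12, limma adjusted p = 0.110) and Utp6 -0.34 (SE 0.15, limma adjusted p = 0.143), with overlapping arrays. Rrp12, an export factor of the small subunit, was low by only 0.13 at E10.5, yet its arrays did not overlap (11.98 to 12.11 at E10, 11.89 to 11.93 at E10.5). Rrp7a had the smallest p of those that were higher, at 0.29 (SE 0.17, limma adjusted p = 0.270). At the upper end stood Imp3, a U3 particle protein, with 0.40 (SE 0.38), and its arrays spread from 7.03 to 8.53 at E10 and from 7.75 to 8.87 at E10.5. Nol7 shows how much can rest on the probe set. The set used, its brightest, gave -0.15 (SE 0.13), and a dim one gave -0.31 (SE 0.25). Another read 6.23, 6.43, 6.35 and 6.28 at E10 and 4.90, 4.86, 4.71 and 4.68 at E10.5. The medians of the vesicle arrays ran from 5.62 to 5.76. The set with these levels gave -1.53 (SE 0.10), with a limma adjusted p of 0.000619 when each probe set is tested by itself. In wild-type vesicles it gave -1.45 and in labelled-null vesicles -1.62, both called in that way (limma adjusted p = 0.0221 and 0.0260). The groups of this set stand far apart on all 8 arrays and those of the brightest set overlap.

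The large subunit factors went both ways. Nol8 fell from 10.91 and 10.81 (wild-type) and 10.85 and 11.01 (labelled-null) at E10 to 9.48 and 9.54 (wild-type) and 10.16 and 10.10 (labelled-null) at E10.5. All E10.5 arrays lay below all E10 arrays, and within E10.5 the wild-type pair was the lower. The difference was -1.07 (SE 0.13, limma adjusted p = 0.00456), and 1 other Nol8 set gave -1.29 while the dimmest gave -0.27. Nop53, which brings the exosome to the pre-60S particle and also binds ribosomal protein Rpl11, rose. At E10 its wild-type arrays read 10.98 and 11.51 and its labelled-null arrays 11.06 and 11.83, and the 4 arrays at E10.5 read 11.96 to 12.05. Both low E10 values belong to the narrow-spread replicate 1 arrays. The difference was 0.66 (SE 0.19, limma adjusted p = 0.0479), with 0.97 and 0.18 from its other sets, and without both E10 replicate 1 arrays it lost the call. The Nol8 and Nop53 sets used can bind transcripts of several genes.

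Of the remaining large subunit members, Rrp15 came nearest to the threshold, at -0.34 (SE 0.11, limma adjusted p = 0.0619). Nop2, the methyltransferase of the large ribosomal RNA, gave -0.22 (SE 0.11, limma adjusted p = 0.201). Bop1, which forms the PeBoW complex with Pes1 and Wdr12, read 13.24 to 13.37 at E10 and 13.37 to 13.46 at E10.5 (0.11, SE 0.09, limma adjusted p = 0.416). Rrp1 read 13.00 to 13.18 at E10 and 13.27 to 13.29 at E10.5, apart but by little (0.15, SE 0.09, limma adjusted p = 0.281). A further Rrp1 set gave 0.51 (SE 0.13), with a limma adjusted p of 0.0436 when each probe set is tested by itself.

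Npm1, the nucleolar chaperone that helps hold the granular nucleolus together, fell. It read 13.02, 12.98, 12.88 and 12.74 at E10 and 12.27, 12.25, 12.45 and 12.45 at E10.5, wild-type before labelled-null. The stages did not overlap, and the labelled-null pair lay below the wild-type pair at E10 and above it at E10.5. The stage difference was -0.55 (SE 0.11, limma adjusted p = 0.0176). The second set of Npm1 gave -0.51 (SE 0.14). The 3 members with other known roles gave no call. Nol3 gave -0.03 (SE 0.15), Nol4 0.09 (SE 0.16) and Nol4l 0.49 (SE 0.20, limma adjusted p = 0.128), and 1 of the other Nol4l sets gave -0.30. Over the 49 member probe sets not used, 14 went the other way from the set used, 6 gave under 1/2 of its difference and 8 over 2 times it.

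How firmly each call stood differed among the 10 genes. Dkc1 and Nol8 passed in all 18 alternative settings of the stage test, Utp20 in 17, Npm1 in 16, Nop58 in 14 and Nop56 in 10. The calls of Nop53 held in 8 settings, and those of Utp14a, Utp14b and Nop14 in 7 each. Utp14b passed in 0 of the 8 settings that left out 1 array. The count of 10 fell to 2 without the wild-type E10.5 replicate 1 array, to 3 without replicate 2 of that group, to 4 and 5 without replicates 2 and 1 of the labelled-null E10.5 group, and to 5 without the labelled-null E10 replicate 1 array. With no filter on dim genes it was 6 (10.7% of all genes called). The share of all genes called fell as well in the 5 settings with an array left out, from 15.8% to between 3.44% and 7.94%. With quantile normalization, chosen after seeing the data, 15 members passed, including all 10, while the share of all genes called rose to 24.8%.

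Markers of other cell types moved with stage beside these genes, where 9.28% of all genes tested rose and 6.54% fell. Of 7 blood markers tested 6 rose, with a median of 2.14, and the summed level of that list was 6053 to 12290 at E10 and 21210 to 39520 at E10.5. Of 10 neuronal markers 7 rose and 1 fell (summed level 1652 to 2838, then 4887 to 5809), of 11 mesenchymal markers 4 rose (983.4 to 1716, then 1590 to 2309), and of 7 endothelial markers 3 rose (401.6 to 440.7, then 516.2 to 608.6). Otic epithelial markers also moved, 5 up and 2 down of 12 (6763 to 14100, then 18070 to 19720). The summed level of the 45 members was 83030 to 92230 at E10 and 76280 to 79110 at E10.5. A sum of linear levels is weighted to the brightest genes. The mean log2 level of the 45 members was 9.48 to 9.77 at E10 and 9.37 to 9.51 at E10.5, which overlap. The log2 values reach 0 for no marker, and the part of these cell types in the members' differences was not tested.

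The stage difference was then read in each genotype by itself, on separate arrays. In wild-type vesicles 3 members fell, Nol8 by 1.35 (SE 0.14, limma adjusted p = 0.0261), Dkc1 by 1.05 (SE 0.17, limma adjusted p = 0.0383) and Npm1 by 0.74 (SE 0.14, limma adjusted p = 0.0494). Over all genes 2.17% passed and 0.997% fell. In labelled-null vesicles 0 members passed, where 0.022% of all genes did, and 7 members were lower at an unadjusted p under 0.05 in the limma fit (7.81% of all genes). Nol8 gave -0.80 (SE 0.14, limma adjusted p = 0.0927), Dkc1 -0.88 (SE 0.17, limma adjusted p = 0.101) and Nop56 -0.60 (SE 0.15, limma adjusted p = 0.152) there. On the high side Nop53 gave 0.77 (SE 0.28) in wild-type and 0.56 (SE 0.28) in labelled-null vesicles, Nol4l 0.53 and 0.45, Nop9 0.43 in wild-type and Rrp1 0.20 in labelled-null vesicles, with no call. The 3 wild-type calls rested on few arrays. Of them 0 held without either wild-type E10.5 array, without wild-type E10 replicate 1 or without either labelled-null E10.5 array. With only the 4 wild-type arrays 0 held as well. In these settings 0% of all genes passed, or 0.044% without wild-type E10 replicate 1, so the loss was not particular to the members.

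Direction was shared more often than the calls. Both genotypes were lower at E10.5 for 25 of the 45 members (55.6%, against 33.4% of all genes), and in 13 of them the arrays of the 2 stages did not overlap in either genotype (28.9%, against 12.3% of all genes). Across the 45 members the 2 differences correlated at r = 0.82, where the correlation across all genes was 0.80. This describes genes read on the same arrays and is not particular to the members. The interaction of label and stage was called for 0 members and 0% of all genes in the limma fit, and at an unadjusted p under 0.05 stood 1 member that was higher (0.55% of all genes) and 0 that were lower (1.42%). Its largest values were for Nol8 (0.55, SE 0.20, limma adjusted p = 1), Utp4 (0.53, SE 0.25) and Npm1 (0.38, SE 0.20). At the lower end stood Nol10 (-0.47, SE 0.31), Rrp1b (-0.39, SE 0.28) and Nop56 (-0.29, SE 0.22).

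**Figure D3:**
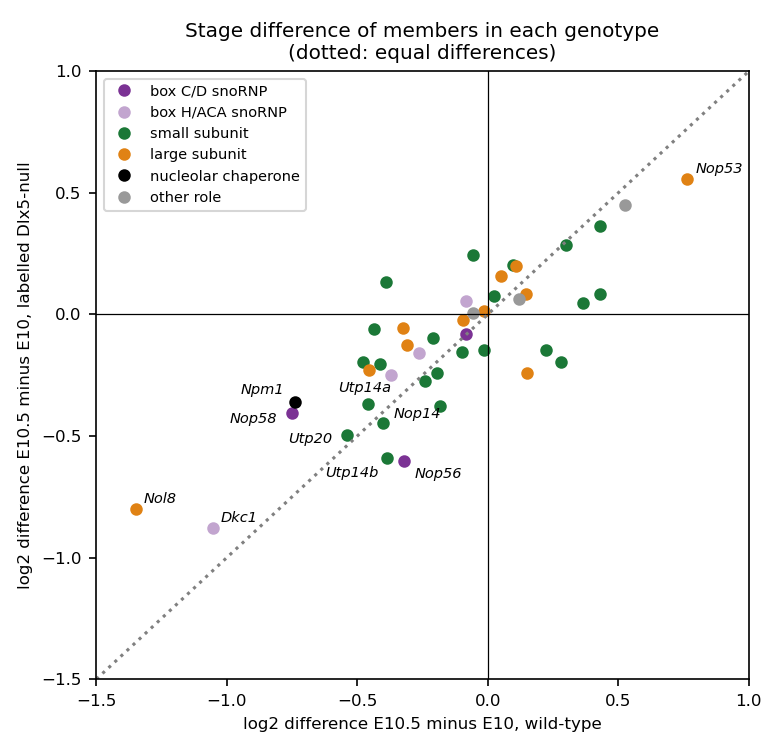
Stage difference (E10.5 minus E10, log2 units) of each member in wild-type (horizontal) and labelled-null vesicles (vertical), coloured by role, with the members that passed the stage test named and the dotted line marking equal differences. Nol8 lies above the line, at -1.35 and -0.80, while Dkc1 lies near it, at -1.05 and -0.88.

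The label itself was read over both stages, as labelled-null minus wild-type. Its bearing on Dlx5 rests on the labels, since the Dlx5 probe set was higher in the labelled-null arrays. Here 0 of the 45 members passed the limma test, where 0.022% of all genes did, and 1 member was higher and 3 lower at an unadjusted p under 0.05 (1.27% and 2.84% of all genes). Most members leaned low, 35 of 45 (77.8%, against 52.6% of all genes), with a median of -0.07 against -0.01 over all genes. With each array left out in turn the median ran from -0.14, without wild-type E10 replicate 1, to -0.02, without wild-type E10 replicate 2. Among the role groups, 20 of 23 small subunit factors and all 7 box C/D and H/ACA proteins stood below 0, and the calls in each were 0.

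Utp18 and Nol11 had the smallest p and were the 2 members whose labelled-null arrays all lay below all wild-type arrays (0.923% of all genes). Utp18, of the UtpB module of the processome, read 5.24, 5.69, 5.30 and 5.24 on the wild-type arrays, E10 before E10.5, and 5.15, 5.11, 4.91 and 4.87 on the labelled-null arrays (-0.36, SE 0.12, limma adjusted p = 0.949). These levels are near or below the medians of the vesicle arrays (5.62 to 5.76). Nol11, of the UtpA module that links processing to transcription, read 7.56, 7.95, 7.57 and 7.57 on the wild-type and 7.38, 7.55, 7.23 and 6.95 on the labelled-null arrays in the same order (-0.38, SE 0.13, limma adjusted p = 0.949). Another Nol11 set gave -0.14 (SE 0.12). Dkc1 gave -0.32 (SE 0.12, limma adjusted p = 0.999), and Nol8, the other way, 0.34 (SE 0.13, limma adjusted p = 0.999). Of the other core proteins Fbl, Nop56, Nop10, Gar1 and Nhp2 lay between -0.07 and -0.01, Nop58 gave -0.24 (SE 0.13) and Npm1 0.00. Nol3 gave 0.17 (SE 0.15) and Nol4 0.16 (SE 0.16).

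At E10 alone 0 members passed the limma test, with 0% of all genes. At an unadjusted p under 0.05 stood 0 members that were higher (1.57% of all genes) and 2 that were lower (1.74%), and 33 of 45 were lower in all (median -0.10, against 0.01 over all genes). Utp4 gave -0.46 (SE 0.18), Nop58 -0.41 (SE 0.18) and Dkc1 -0.40 (SE 0.17), each at a limma adjusted p of 1. On the high side Rrp1b gave 0.26 (SE 0.20), Nol4 0.18 (SE 0.24) and Nop56 0.12 (SE 0.15). Leaving out wild-type E10 replicate 1 gave a median of -0.23, and leaving out its replicate 2 gave 0.02. Both replicate 1 arrays at E10 have the narrow spread, so leaving out 1 array sets unlike arrays against each other. Within replicate 1 the mean member level was 9.48 in the labelled-null and 9.52 in the wild-type array, and within replicate 2 it was 9.63 and 9.77. Without both replicate 1 arrays 33 of 45 members were lower, with a median of -0.14. At E10.5 alone 0 members passed the limma test, with 0.00733% of all genes. At an unadjusted p under 0.05 stood 1 member that was higher (0.777% of all genes) and 1 that was lower (2.18%), and 30 of 45 were lower in all (median -0.04, and -0.04 over all genes). Without labelled-null E10.5 replicate 2 this median was 0.02, and without replicate 1 it was -0.12. Nol8 stood highest, at 0.62 (SE 0.14, limma adjusted p = 0.820), followed at the low end by Nol11 (-0.48, SE 0.19), Utp18 (-0.38, SE 0.18) and Utp25 (-0.38, SE 0.23), and on the high side by Nol6 (0.37, SE 0.30) and Npm1 (0.19, SE 0.14). Another Nol11 set gave -0.06 (SE 0.17) at E10.5. For Nol8 the labelled-null arrays at E10.5 lay above the wild-type arrays, as for 16.9% of all genes, and its 3 probe sets gave 0.62, 0.69 and 0.21. At E10.5 the summed level of blood markers was 36180 to 39520 in the labelled-null and 21210 to 22480 in the wild-type arrays. That of neuronal markers was 5584 to 5809 and 4887 to 4897, and that of mesenchymal markers 1590 to 1882 and 2120 to 2309. The part of these in the members' values was not tested.

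In 2B1 cells Dlx5 transfection gave 0 limma calls among the members and 0 over all 13647 genes tested (0%). At an unadjusted p under 0.05, 5 members were higher and 2 lower, where 9.71% and 3.19% of all genes were. Of the 45 members 30 were higher with Dlx5, and their median was 0.12 against 0.04 over all genes. The 2 cultures with Dlx5 did not overlap the 2 with the empty vector for 16 members that were higher (29.6% of all genes) and 8 that were lower (19.1% of all genes).

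**Figure D4:**
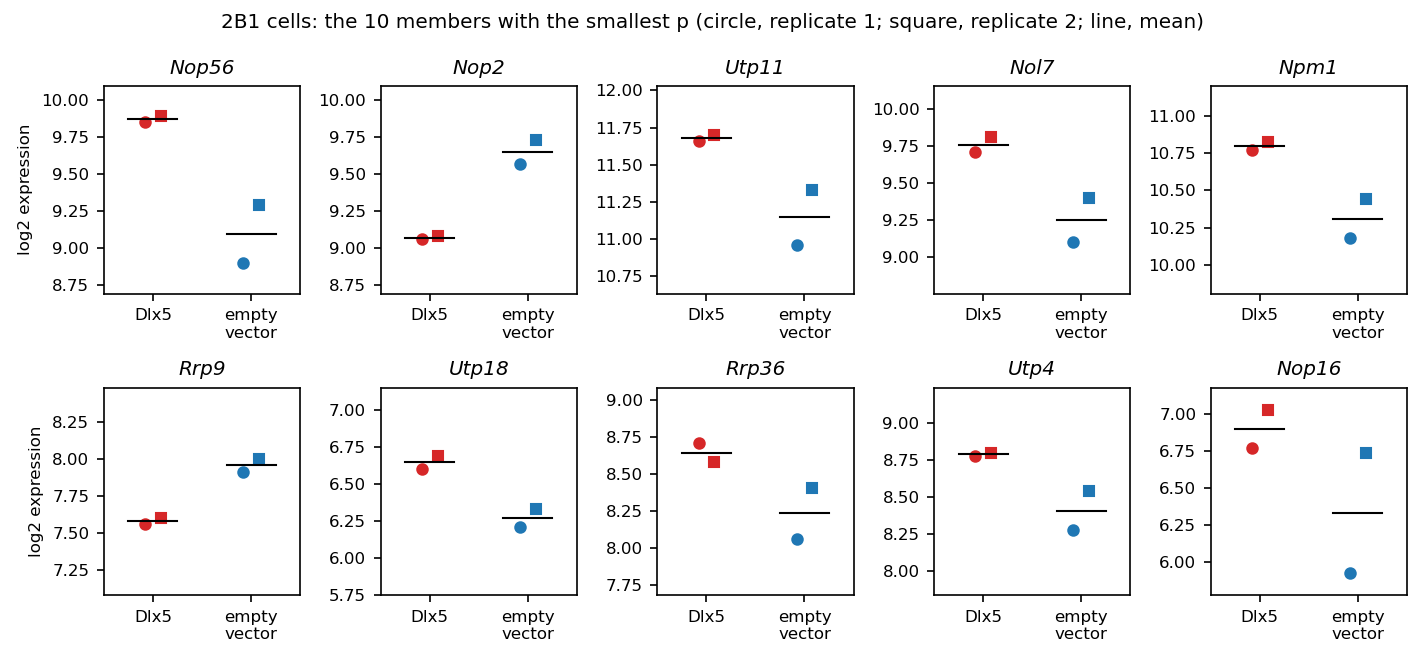
Log2 expression (vertical axis) on each 2B1 array of the 10 members with the smallest p, with Dlx5 in red and the empty vector in blue, replicate 1 as circles, replicate 2 as squares and the line at the mean. In 8 panels the Dlx5 arrays lie above, in Nop2 and Rrp9 below, and the empty-vector circle lies under its square in all 10.

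Nop56 had the smallest p of the members. It read 9.85 and 9.89 with Dlx5 against 8.90 and 9.29 with the empty vector, and the Dlx5 cultures lay above both others (0.78, SE 0.18, limma adjusted p = 0.377). Its other probe set gave 0.37. Utp11 read 11.66 and 11.70 against 10.96 and 11.33 (0.53, SE 0.18), and Npm1 10.77 and 10.83 against 10.18 and 10.44 (0.49, SE 0.17), each at a limma adjusted p of 0.377. Nol7 gave 0.51 (SE 0.17). On the low side Nop2 read 9.06 and 9.08 against 9.57 and 9.73 (-0.58, SE 0.16, limma adjusted p = 0.377) and Rrp9, a U3 particle protein, 7.56 and 7.60 against 7.91 and 8.00 (-0.38, SE 0.16, limma adjusted p = 0.384). Nol6 gave -0.35 (SE 0.18). Bop1 also stood lower with Dlx5, at 12.06 and 11.95 against 12.22 and 12.43. Dkc1 gave 0.34 (SE 0.16) with its brightest set and -0.17 and 0.46 with the others, Nop58 0.26, Gar1 0.14 and Nhp2 -0.12.

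The 2 empty-vector cultures differed from each other across the members. Replicate 1 was the lower in 44 of 45 members, with a median gap of -0.23, whereas the Dlx5 cultures differed in both directions, 21 of 45 lower in replicate 1. The exception was Nol6, at 8.76 and 8.42. Without empty-vector replicate 1 the member median was -0.05 and without empty-vector replicate 2 it was 0.28, so its direction rests on single cultures. Of the 45 members 26 (57.8%) were lower in labelled-null vesicles and higher in Dlx5-transfected cells. Of the 12572 genes tested in both sets 35.3% were. Taken singly, 77.8% of members were lower in labelled-null vesicles and 66.7% higher with Dlx5, so a high joint share follows in part from these 2 leans. Without empty-vector replicate 1, 24 of the 45 members were lower with Dlx5. In neither comparison did a member pass, and a shared response was not tested.

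Other genes of the pathway were read from lists of textbook membership. Of 93 tested ribosome assembly factors outside the naming rule, 28 fell and 2 rose with stage, with a median of -0.18. Over all genes tested 6.54% fell and 9.28% rose. Mdn1, the giant ATPase that strips factors from the pre-60S particle, gave -1.10 (SE 0.14, limma adjusted p = 0.00446). Ncl, nucleolin, gave -1.03 (SE 0.18, limma adjusted p = 0.0101), and Gnl3, nucleostemin, -0.92 (SE 0.15, limma adjusted p = 0.00756). Wdr3, of the processome, fell by 0.51 (SE 0.10, limma adjusted p = 0.0140). The E10 and E10.5 arrays did not overlap for 36 of these factors that were lower (9.97% of all genes) and 4 that were higher (15.3%).

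RNA polymerase I and its factors showed no common direction. Of 15 tested, Ubtf, the upstream binding factor of ribosomal DNA, rose by 0.57 (SE 0.11, limma adjusted p = 0.0127) and Polr1e, a polymerase subunit, fell by 0.46 (SE 0.10, limma adjusted p = 0.0233), with a median of 0.00. Of 43 ribosomal protein genes tested, out of 79 listed, 1 passed, Rpl27a (-1.63, SE 0.18, limma adjusted p = 0.00337), where 15.8% of all genes passed, and the list median was 0.07, near the 0.04 of all genes. Rps15 was next, at 0.34 (SE 0.10, limma adjusted p = 0.0514). The Rpl27a set is dim for this list, at 8.88 to 8.96 at E10 and 6.77 to 7.57 at E10.5. The mean level of the list was 12.66 to 12.77 at E10. In the labelled-null comparison and in 2B1 cells 0 genes passed in any of these 3 lists. Their medians over both stages were -0.09 for assembly factors, -0.13 for RNA polymerase I and -0.04 for ribosomal proteins, and in 2B1 cells 0.19, 0.23 and 0.13. Taf1a (-0.41, SE 0.16) and Pop1 (-0.35, SE 0.10) had the smallest p for the label, and Noc4l (0.92, SE 0.23) and Mtrex (0.77, SE 0.18) for the transfection.

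**Figure D5:**
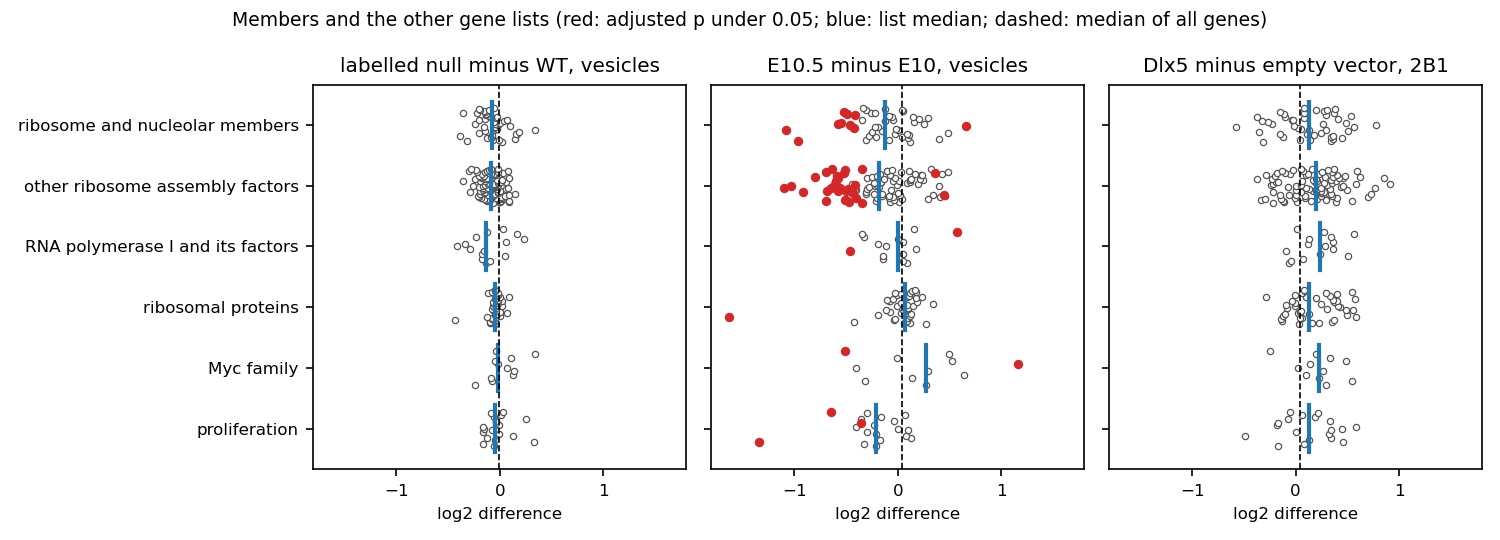
Log2 difference of every tested gene (points, red where the limma adjusted p was under 0.05) for the members and 5 other lists in the 3 main comparisons, with the list median as a blue bar and the median of all genes as a dashed line. Red points are seen in the stage comparison only, where they lie mostly below 0 for the members (9 of 10) and the other assembly factors (28 of 30).

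The Myc family was read because of the E-box. Of its 11 genes tested 2 passed with stage (15.8% of all genes), 1 in each direction. In all 7 were higher and 4 lower, with a median of 0.275. Mycn, the Myc gene of embryonic progenitors, read 11.69, 11.53, 11.55 and 11.44 at E10 and 10.98, 11.08, 11.04 and 11.09 at E10.5. It fell by 0.50 (SE 0.10, limma adjusted p = 0.0159), with no overlap between stages. Mxd4, a Myc antagonist, read 8.21 to 9.23 at E10, with both low values on the narrow-spread arrays, and 9.59 to 10.00 at E10.5. It rose by 1.16 (SE 0.24, limma adjusted p = 0.0187). Mxd3, another Mxd gene, went the other way without a call, from 8.09 to 8.70 at E10 to 7.84 to 8.08 at E10.5. Myc itself gave -0.01 (SE 0.10) and Mycl 0.49 (SE 0.20, limma adjusted p = 0.116). In 2B1 cells Myc gave 0.33 (SE 0.22), Mycn -0.24 (SE 0.19) and Mycl 0.19 (SE 0.17), none past the threshold.

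Members with and without the E-box letters are given side by side, with no test. Of the 9 with an E-box 6 were lower at E10.5 and 2 passed (Utp14b and Utp20), with a median stage difference of -0.22. Of the 25 with a window and no E-box 16 were lower and 6 passed, with a median of -0.15. Among the 8 fallen members with a window, CCAAT stood in 4, Dkc1, Nop56, Utp14a and Utp20, near its share of 42.0% of all genes. The ETS letters stood in 0 of these 8, against 6.62% of all genes. To show what these promoters hold, the 100 bases before the start are given on the gene's strand for the 4 fallen members that follow, with CCAAT or its reverse complement ATTGG in capitals where it occurs.
Dkc1: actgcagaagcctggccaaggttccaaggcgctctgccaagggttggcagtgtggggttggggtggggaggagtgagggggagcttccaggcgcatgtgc
Nol8: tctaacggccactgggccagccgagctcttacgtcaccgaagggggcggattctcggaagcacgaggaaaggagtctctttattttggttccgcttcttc
Nop58: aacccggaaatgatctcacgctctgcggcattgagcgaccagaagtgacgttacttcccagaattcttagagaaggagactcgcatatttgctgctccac
Nop56: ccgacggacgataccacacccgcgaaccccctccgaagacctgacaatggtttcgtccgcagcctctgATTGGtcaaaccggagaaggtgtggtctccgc
They lie at chrX:75095754-75095853 (Dkc1), chr13:49652978-49653077 (Nol8), chr1:59684906-59685005 (Nop58) and chr2:130274312-130274411 (Nop56), all on the plus strand of GRCm38.p6. In Nop56 the motif begins 32 bases before the start, and in Dkc1 it lies outside the printed stretch, 26 bases after the start. The Nol8 and Nop58 windows hold none of the 6 motifs.

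Lists of growth state were read beside these. Of 19 proliferation genes 3 fell (15.8% of all genes passed in either direction and 6.54% fell), Top2a by 0.64 (SE 0.10, limma adjusted p = 0.00750), Bub1 by 1.34 (SE 0.31, limma adjusted p = 0.0260) and Mcm6 by 0.35 (SE 0.10, limma adjusted p = 0.0442), and 0 rose, with a median of -0.21. Of 13 p53 response genes Phlda3, Bbc3 and Sesn2 rose and Mdm4, a p53 inhibitor, fell (-0.49, SE 0.12, limma adjusted p = 0.0308). Their relation to the members was not tested.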

How the data were processed

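The deposited table holds log2 expression per probe set, made by the authors with RMA in Affymetrix Expression Console, per the submitters' processing notes; the sources used here give no version. RMA compresses differences of dim probe sets. Vesicle and 2B1 arrays differ in mean and maximum and appear to have been normalized separately, so no level was set across them. Signal over background is unknown.

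Of 45101 probe sets, 34958 list 1 gene, 932 several and 9211 none. Symbols were updated through RefSeq GRCm38.p6. Each gene took its brightest single-gene probe set, and the lowest 25% of genes were left out, leaving 13645 (vesicles) and 13647 (2B1). The test was limma 3.58.1 (lmFit and eBayes, R 4.3.3) with Benjamini-Hochberg adjustment over all genes, threshold 0.05. The label and stage effects over 8 arrays had 5 residual degrees of freedom, contrasts of group means 4, and 2B1 2. These vesicle contrasts share arrays. With 2 arrays a group, their number limits the precision. The fits were tested on simulated data.

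Members and lists were chosen with earlier results of these data known. Named were members past the threshold (up to 6 a direction), otherwise up to 3 a direction by p, the listed core proteins, Nol3, Nol4 and Nol4l, and up to 4 genes of a list. Others (Imp3, Rrp12, Nol7, Rrp15, Utp3, Utp6, Nop2) were chosen after their values were seen. Alternatives were other probe set choices, filters, centring, a variance trend, a replicate block and left-out arrays. Quantile normalization, leaving out the 3 narrow-spread arrays, and crossed replicate numbers were added after seeing the data.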

Additional observations from a re-analysis of the deposited data

How the results depend on the processing

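Of the 10 members called for stage, Dkc1 and Nol8 passed under all 18 alternatives, and centring each array on its median left 7. Of all genes 14.2% passed with this centring. Member calls for stage numbered 6 with no filter on dim genes (10.7% of all genes). As single arrays were left out they numbered from 2 to 10 (3.44% to 27.8% of all genes). In wild-type vesicles they numbered 5 probe sets (of Nol8, Dkc1 and Nol7) with each set tested singly, where 1.46% of all sets passed. Members called were 5 with quantile normalization and 5 without both E10 replicate 1 arrays (7.42% and 12.4% of all genes called, against 2.17%). The count was 0 without the 3 narrow-spread arrays (0% of all genes) and 0 with only the 4 arrays of those groups (0%). With single arrays left out it was 0 to 3 (0% to 6.4% of all genes). In labelled-null vesicles 1 passed with sets tested singly, 1 with a variance trend and 1 without both E10 replicate 1 arrays. There 0.0763% of all sets, 0.799% of all genes and 2.12% of all genes passed, in the same order.

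The median of the wild-type stage difference was -0.242 with quantile normalization, -0.28 without both E10 replicate 1 arrays and -0.28 without the 3 narrow-spread arrays. Over left-out arrays it ran from -0.28 to -0.0325, that of the label at E10 from -0.23 to 0.0175, that of the interaction from -0.045 to 0.18, and that of 2B1 cells from -0.05 to 0.275.

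Same-numbered deviations correlated at 0.655 between the E10 groups, whose replicate 1 arrays share a narrow spread, and between -0.462 and 0.025 for the other pairs of vesicle groups, so the numbers were not taken to pair the samples across the series. With the replicate block 8 members passed for stage, 1 in wild-type vesicles, 0 in labelled-null vesicles and 1 in 2B1 cells. The shares of all genes that passed were 16.6%, 0.843%, 0% and 1.89% in the same order. With crossed numbers 0 members and 20 genes passed in 2B1 cells, and 0 members and 81 genes in labelled-null vesicles.

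Signs reversed for uncalled differences only, and the cause was not tested. For the label over both stages these were Nol4l (0.0067, mean of sets), Nop56 (0.0023, quantile), Gar1 (0.0233) and Nop10 (0.0133) without both E10 replicate 1 arrays, and Nol3 (-0.0086) and Nol4 (-0.0414) without the 3 narrow-spread arrays. At E10 Rrp1b gave -0.075 with the mean of sets, against 0.26 with its brightest set, and its other sets gave -0.195 and -0.29. The sign of Nol4 at E10 reversed too (-0.13 without both E10 replicate 1 arrays and -0.13 without the 3 narrow-spread arrays). For stage it was Nol3 (0.0163, quantile, and 0.0375 without both E10 replicate 1 arrays). In 2B1 cells they were Nop10 (-0.025) and Nol3 (-0.0575) with the mean of sets, and Fbl (-0.0769) and Nop10 (-0.015) with quantile normalization.

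With single arrays left out, the label over both stages gave -0.045 to 0.059 for Gar1, -0.086 to 0.039 for Nop56 and -0.08 to 0.048 for Nop10, and at E10 -0.155 to 0.525 for Nol4. Stage gave -0.093 to 0.039 for Nop10, -0.169 to 0.107 for Nol3 and -0.038 to 0.234 for Nol4. 2B1 cells gave -0.05 to 0.14 for Fbl, -0.01 to 0.29 for Gar1, -0.11 to 0.33 for Nol3, -0.465 to 0.165 for Nol4 and -0.165 to 0.645 for Nol4l.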
